A study of Mus musculus with 24 samples.

Results

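Neurons and glia of the right hippocampus were compared 24 hours after kainic acid (KA), to ask which fraction carried the transcripts of injury and of neuronal activity. The comparison used 6 mRNAseq libraries, 3 of NeuN+ nuclei (KA neurons) and 3 of NeuN- nuclei (KA glia), out of 12 mRNAseq libraries and 24 samples in the series. Both fractions of a pool came from the same mice, so neurons and glia were compared within pools. All 37598 genes that passed the filter on low counts were compared, and the 6 sham (SH) libraries served to ask whether a difference between the fractions was of another size after kainic acid.

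The mice were adult male C57/BL6N. KA mice received kainic acid and SH mice saline by a deep cortical injection, and the right hippocampus was taken 24 hours later, so that both groups share the injection. Pool 1 held 4 mice and pools 2 and 3 held 2 mice each, so that a value of a pool is an average over mice. RNA was taken from sorted nuclei, and the NeuN- fraction holds every nucleus without the neuronal protein NeuN. It holds astrocytes, microglia, the oligodendrocyte lineage, vessel cells and any neurons that lack NeuN together, so that "glia" below names this fraction. In such bulk fractions, fewer cells of a type and less RNA per cell cannot be told apart.

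Kainic acid activates glutamate receptors and drives neurons into seizures. Neurons answer strong firing with immediate early genes, transcription factors that are read within minutes and that switch on a second set of genes for synapses, growth factors and peptides. Microglia, the immune cells of the brain, and astrocytes, which clear glutamate and potassium, answer tissue injury with cytokines, matrix proteins and the programme known as reactive gliosis. Cells under protein stress make heat shock proteins.

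The KA libraries held between 7769400 and 32429530 counts. KA glia of pool 2 was amplified from 0.05 ng RNA with 15 PCR cycles and so was SH glia of pool 1, while the other libraries were made from 1 ng with 10 cycles. Pool 3 stood apart, with 37060 genes detected in glia and 42160 in neurons against 45615 to 47748 in the other 4 KA libraries. Expression is given as CPM, counts relative to library sizes scaled by the trimmed mean of M values (TMM), in the order of pools 1, 2 and 3. CPM gives the share of a library, not the amount of RNA per nucleus or per fraction. The study reports a higher RNA yield per hemisphere from NeuN+ than from NeuN- nuclei. A similar CPM in both fractions therefore does not mean an equal amount of transcript. Differences are log2 fold changes (logFC) of neurons over glia ± SE from a quasi-likelihood fit of edgeR with the pool as a block, positive where neurons were higher, with a false discovery rate (FDR) adjusted over all genes and a threshold of 0.05.

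Markers of the sort lay mostly in the fraction expected from NeuN. Rbfox3, which encodes NeuN, measured 161, 207 and 252 CPM in neurons and 17.7, 34.03 and 44.1 CPM in glia (logFC 2.76 ± 0.24, FDR 2.67e-06). All 15 neuronal markers were higher in neurons, against 14.1% of all genes tested. Every one of 10 microglial, 8 oligodendrocytic and 5 oligodendrocyte precursor markers was higher in glia, against 6.65% of all genes, among them the fractalkine receptor Cx3cr1 with 2.65, 7.43 and 9.56 CPM in neurons and 102, 166 and 233 CPM in glia (logFC -4.74 ± 0.25, FDR 1.25e-07) and the myelin gene Mbp (logFC -3.73 ± 0.37). Of 10 astrocytic markers 8 were higher in glia, or 6 without KA pool 1, such as Aldh1l1 with 5.12, 12.6 and 10.01 CPM in neurons and 31.5, 28.3 and 29.1 CPM in glia (logFC -1.74 ± 0.30, FDR 5.31e-04). The glutamate transporter Slc1a2 (logFC -0.44 ± 0.33, FDR 0.479) and the bicarbonate transporter Slc4a4 (logFC 0.30 ± 0.25) were the 2 that did not pass the test. Markers of vessel cells were low. The endothelial gene Pecam1 stayed at or under 10.8 CPM in every KA library, and the pericyte gene Pdgfrb between 4.78 and 24.3 CPM. Pdgfrb was higher in glia (FDR 0.038), but not without pool 1 (FDR 0.523).

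Transcripts of the markers of each fraction were also measured in the other. For each marker the level in the other fraction was set against its own fraction of the same pool. Over the 15 neuronal markers, glia held a median of 11.0, 17.2 and 21.6% of the level of neurons in pools 1, 2 and 3. Over the astrocytic markers, neurons held 10.7, 32.1 and 38.4% of the level of glia. The shares were smaller for microglial markers (3.53, 5.05 and 4.52%), for oligodendrocytic markers (1.5, 5.84 and 4.74%) and for precursor markers (2.86, 7.77 and 8.95%). The share was lowest in pool 1 for each of these 5 lists. Transcripts seen in both fractions are set beside these shares below. The study measured the mean purity of both sorted fractions, which was high but not complete, and NeuN+ nuclei yielded more RNA. Whether the shares come from nuclei sorted into the other fraction or from expression within it was not tested.

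Before the values, the stretches of promoter that are spoken of below are shown, read from RefSeq promoters on GRCm38.p6, 5′ to 3′ along the gene, with the matching letters in capitals. A promoter here runs from 250 bases before to 50 bases after a start site, both strands were searched, and a gene counts once if any of its promoters matched. The letters GAANNTTC, the core of the element bound by heat shock factors, were in 9 of the 12 heat shock genes with a promoter and in 9.04% of 27025 genes. Those 9 genes were Hspa1a, Hspa1b, Hspb1, Hspb8, Hsph1, Hspd1, Hspe1, Dnaja1 and Bag3. Of them, Hspa1a, Hspa1b, Hsph1 and Dnaja1 were higher in neurons, Bag3 was higher in glia, and the others did not pass the test. The letters are shown for a pair of near-identical genes and another gene that were higher in neurons, and for 1 gene that did not pass the test.
Hspa1a (chr17:34972223-34972290, - strand): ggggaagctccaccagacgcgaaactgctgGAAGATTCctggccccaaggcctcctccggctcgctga
Hspa1b (chr17:34959305-34959372, - strand): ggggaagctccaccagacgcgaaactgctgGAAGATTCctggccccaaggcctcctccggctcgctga
Dnaja1 (chr4:40722314-40722381, + strand): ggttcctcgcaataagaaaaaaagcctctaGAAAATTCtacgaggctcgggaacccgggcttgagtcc
Hspb1 (chr5:135887772-135887859, + strand): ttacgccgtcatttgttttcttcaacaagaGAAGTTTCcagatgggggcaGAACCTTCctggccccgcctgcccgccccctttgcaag
The windows of Hspa1a and Hspa1b are the same in every letter, and that of Hspb1 holds the letters at 2 places.

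The letters TGACGTCA, the full cAMP response element through which firing acts on transcription, were in 4 of 16 neuropeptide and granin genes (Sst, Scg2, Chgb and Pcsk1), in 2 of 9 sphingosine-1-phosphate genes (Sphk2 and S1pr2), in 2 of 18 activity effectors (Plk2 and Dusp1), in 2 of 19 immediate early transcription factors (Maff and Btg2), in Ch25h and Jak1 of other lists, and in 2.03% of all genes. They are shown for 3 genes of secreted products and for Btg2, a brake on cell division.
Sst (chr16:23890845-23890932, - strand): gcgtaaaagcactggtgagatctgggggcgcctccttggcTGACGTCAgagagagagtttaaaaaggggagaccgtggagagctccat
Scg2 (chr1:79440047-79440134, - strand): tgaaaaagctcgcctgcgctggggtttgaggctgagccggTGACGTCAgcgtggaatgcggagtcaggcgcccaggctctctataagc
Pcsk1 (chr13:75089739-75089826, + strand): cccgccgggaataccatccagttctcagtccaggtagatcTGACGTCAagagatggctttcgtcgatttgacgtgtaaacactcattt
Btg2 (chr1:134079274-134079361, - strand): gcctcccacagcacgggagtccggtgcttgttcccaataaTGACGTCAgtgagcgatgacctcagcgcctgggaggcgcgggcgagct

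The letters TGANTCA, bound by pairs of Fos and Jun proteins, were in 6 of 25 reactive astrocyte genes, 5 of 17 cytokine genes, 5 of 18 reactive microglia genes, 4 of 16 interferon response genes, 3 of 13 oxidative stress genes and 8.97% of all genes. They were also in 2 of 12 heat shock genes, 2 of 18 activity effectors (Bdnf and Gpr3), 2 of 18 matrix genes and 1 of 8 axon injury genes. They were in 1 of 19 immediate early transcription factors and in 0 of 16 neuropeptide and granin genes. Lists that lay towards glia were also low, with 1 of 18 cytokine receptor and STAT3 genes, 1 of 15 stress and cell death genes and 0 of 7 homeostatic microglia genes. The counts were 1 of 10 growth factors, 1 of 9 sphingosine-1-phosphate genes, 1 of 8 clearance genes and 0 of 9 glutamate receptor subunits. Cxcl10 counts in both the reactive astrocyte and the cytokine list. The oxidative stress matches were Srxn1, Osgin1 and Mt2, of which Srxn1 was higher in neurons. They are shown for 3 genes that were higher in glia.
Cxcl10 (chr5:92348917-92349003, - strand): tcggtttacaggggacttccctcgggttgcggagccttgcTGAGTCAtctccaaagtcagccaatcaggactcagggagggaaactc
Lif (chr11:4257318-4257386, + strand): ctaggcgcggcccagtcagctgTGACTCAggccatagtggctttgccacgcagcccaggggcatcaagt
Sphk1 (chr11:116531747-116531833, + strand): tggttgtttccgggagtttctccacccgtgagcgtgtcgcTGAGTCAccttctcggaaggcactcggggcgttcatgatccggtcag
GAGGAAGT, a site of the microglial factor PU.1, was in 3 of 18 reactive microglia genes (Spp1, Cd300lf and Ctss) and in 0 of 7 homeostatic ones. It was in 1 of 18 activity effectors (Dusp5) and in 3.69% of all genes. These matches describe letters and were not tested for binding.

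Across all genes, 5289 (14.1%) were higher in KA neurons and 2502 (6.65%) in KA glia. Of 20346 protein-coding genes, the kind that nearly all listed genes are, 21.7% were higher in neurons and 10.5% in glia. The count of each list below is to be set against these shares. Without the pool as a block, 2211 and 1497 genes passed. The median logFC of all genes was -0.04 with TMM, -0.20 with the size factors of DESeq2 (RLE) and -0.17 with upper quartile scaling, and neurons had 67.9, 58.4 and 63.0% of the calls in turn. The split depended more on other choices: it was 49.8% among genes with at least 10 counts in every library, 40.4% with the KA libraries alone, and 42.5% without SH pool 1. The median logFC of all genes was -0.49 with the KA libraries alone and -0.54 without SH pool 1, and calls in both fits lay further towards glia. With the KA libraries alone, 9 genes named here lost their call towards neurons and 11 gained one towards glia (Pecam1, Atf3, Gadd45b, Hspa5, Hspd1, Mdm2, Itgax, Gpnmb, Lgals3, Irf1 and Stat2). Without KA pool 1, 1844 genes were higher in neurons and 1733 in glia, without KA pool 2, 2358 and 2004, and without KA pool 3, 5573 and 1905.

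The 10 largest differences towards neurons with at least 10 CPM were those of Bglap3, Cpne7, Camkv, Slc6a7, Cpne6, Matk, Tnfrsf25, Trank1, Ltk and Icam5. None of them is in the lists of injury and activity genes. The copine gene Cpne7, a calcium sensor at membranes, measured 1467, 1208 and 1683 CPM in neurons and 19.8, 89.9 and 208 CPM in glia (logFC 4.25 ± 0.61, FDR 1.09e-04), and the synaptic kinase-like gene Camkv had a logFC of 3.94 ± 0.59. Among the 10 largest towards glia were Trf, Tmem63a, Mag, Apod, Gjc3, Tnf, Plxnb3, Hapln2 and Ccl3. Mag, Gjc3 and Hapln2 are genes of myelinating cells, and Tnf and Ccl3 are cytokines. Trf, the iron carrier transferrin (logFC -5.46 ± 0.48), shares 63.5% of its exon bases with another gene on the same strand, so that part of its reads may not have been counted.

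**Figure D1:**
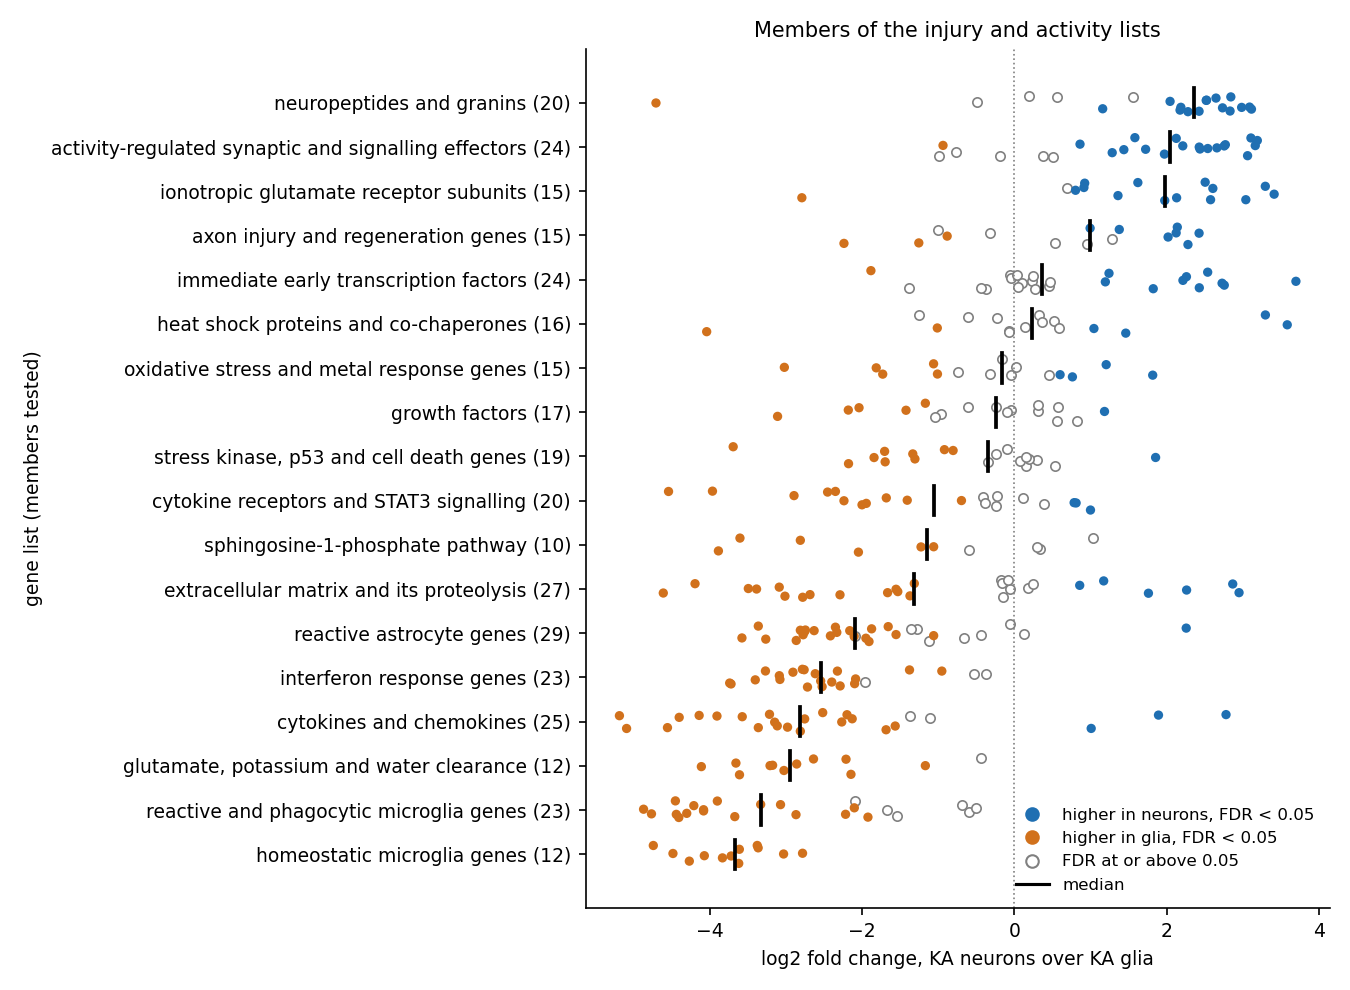
Each point is a gene of 1 of 18 lists, placed by its log2 fold change of KA neurons over KA glia. Lists are ordered by their median, shown as a black bar, and filled points passed an FDR of 0.05. Peptides and activity effectors lie to the right and microglial, cytokine and interferon genes to the left, with immediate early and heat shock genes spread over both sides.

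Immediate early transcription factors did not sit in 1 fraction. Of 24 genes, 10 (41.7%) were higher in neurons, 1 (4.17%) in glia, and 13 did not pass the test (median logFC 0.36). Among protein-coding genes these shares were 21.7% and 10.5%. With 1 KA pool left out, 8 to 10 were higher in neurons and 1 in glia, and with the KA libraries alone 9 and 3.

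The most neuronal of them was Npas4, a factor that calcium entry induces in neurons, at chr19:4984355-4990316. It measured 138, 197 and 252 CPM in neurons and 6.69, 20.3 and 21.9 CPM in glia (logFC 3.70 ± 0.39, FDR 9.82e-06), or 12.97-fold more in neurons. The zinc finger gene Egr4 measured 78.5, 120.3 and 193 CPM in neurons and 10.3, 20.5 and 27.7 CPM in glia (logFC 2.76 ± 0.29, FDR 8.49e-06). The fractions did not overlap for either gene. Level in glia as a share of neurons in the same pool was 4.85, 10.3 and 8.68% for Npas4 and 13.2, 17.04 and 14.3% for Egr4. The medians of the neuronal markers were 11.0, 17.2 and 21.6%, and single markers ranged over 2.73 to 23.4, 9.17 to 23.8 and 11.8 to 38.1%. Npas4 lay below the median in each pool, but below every marker in pool 3 only. Egr4 was above the median in pool 1 only and within the range of the markers in each pool.

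The orphan nuclear receptors of the Nr4a family were all higher in neurons. Nr4a3 measured 40.2, 30.96 and 32.98 CPM in neurons and 4.52, 5.32 and 5.72 CPM in glia (logFC 2.73 ± 0.37, FDR 6.47e-05). Nr4a2 had a logFC of 2.54 ± 0.28 and Nr4a1 of 2.21 ± 0.24. Among Fos genes, Fosb measured 23.1, 16.9 and 36.8 CPM in neurons and 5.82, 2.83 and 7.91 CPM in glia (logFC 2.26 ± 0.31, FDR 6.49e-05) and Fosl2 had a logFC of 1.82 ± 0.24. The fractions were apart for all of these, with the lowest neuronal pool above the highest glial pool. Egr3 measured 109, 99.8 and 79.3 CPM in neurons and 14.3, 12.2 and 31.8 CPM in glia (logFC 2.43 ± 0.36, FDR 1.60e-04). Ier5 (logFC 1.24 ± 0.24) and Btg2 (logFC 1.19 ± 0.26), both higher in neurons, lost the call without pool 1 (FDR 0.256 and 0.203) and without pool 2 (FDR 0.108 and 0.428).

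Fos itself, the best known of them and the partner of Jun in the AP-1 factor, showed no such side. It measured 89.9, 154 and 192 CPM in neurons and 157, 88.3 and 217 CPM in glia (logFC -0.06 ± 0.45, FDR 0.97). Glia were above neurons in pools 1 and 3 and below them in pool 2. Jun measured 152, 205 and 368 CPM in neurons and 168, 132 and 317 CPM in glia (logFC 0.23 ± 0.26, FDR 0.694) and Egr1 155, 283 and 239 CPM in neurons and 154, 84.97 and 289 CPM in glia (logFC 0.47 ± 0.43, FDR 0.599). Ranges overlapped for each. Egr1 in glia was at 99.7, 30.1 and 121% of neurons, Jun at 111, 64.4 and 86.02% and Fos at 175, 57.3 and 113%, against the 11.0, 17.2 and 21.6% of neuronal markers in the same pools. The median of those markers was exceeded in every pool by each of the 3 genes. What neuronal nuclei contributed to the level of these genes in glia was not tested.

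Junb measured 171, 224 and 599.5 CPM in neurons and 182, 150.5 and 504 CPM in glia, Fosl1 8.63, 12.5 and 16.7 CPM in neurons and 10.8, 11.4 and 16.3 CPM in glia and Klf6 59.5, 80.03 and 137 CPM in neurons and 71.8, 61.5 and 121 CPM in glia, and none passed the test. Fosl1 shares 57.2% and Jund 52.6% of their exon bases with a gene on the opposite strand, which the counting did not tell apart. Atf3, a factor of cell stress and nerve injury, measured 14.3, 13.8 and 42.1 CPM in neurons and 30.9, 16.3 and 41.8 CPM in glia (logFC -0.44 ± 0.32, FDR 0.469), and it passed towards glia with the KA libraries alone (FDR 0.0437). Myc, a growth factor-responsive gene, was the 1 gene of the 24 higher in glia in the fit of all libraries, with 14.3, 20.7 and 33.99 CPM in neurons and 51.1, 56.2 and 176 CPM in glia (logFC -1.89 ± 0.29, FDR 2.14e-04). Its level in glia was 358, 271 and 517% of that in neurons, and the fractions did not overlap.

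**Figure D2:**
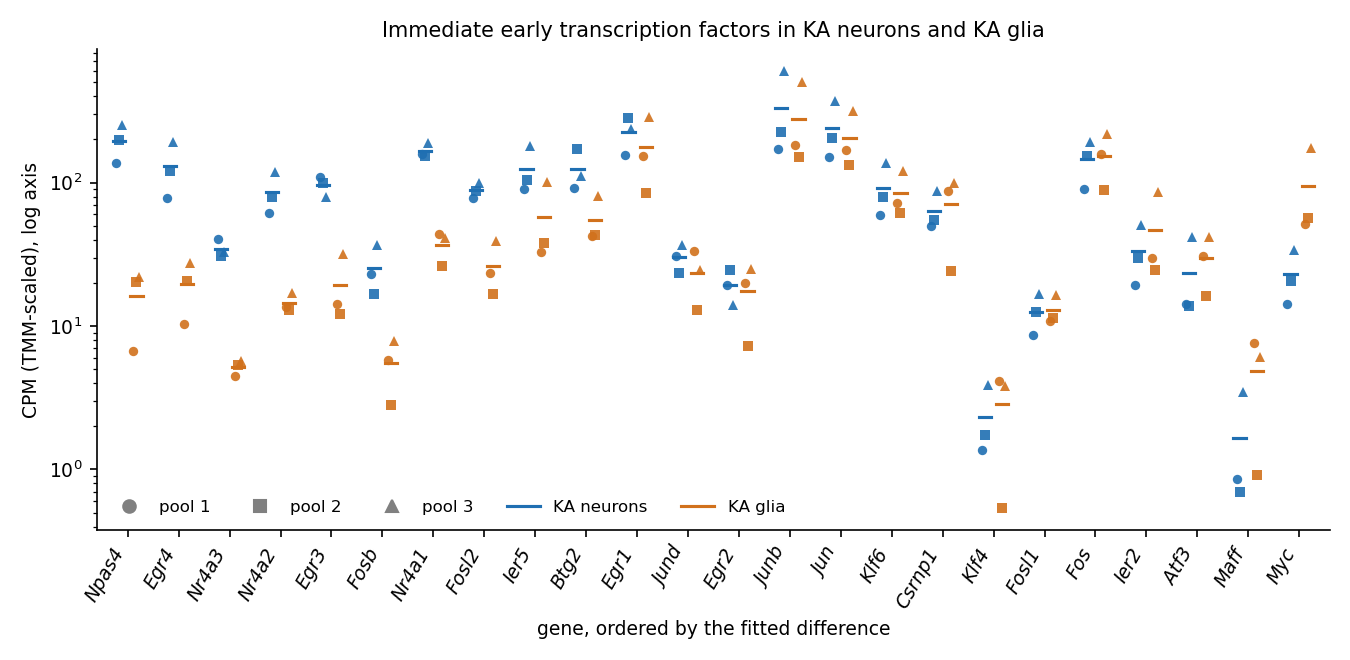
CPM of 24 immediate early transcription factors in KA neurons (blue) and KA glia (orange) on a log axis, with 1 symbol per pool and a bar at the mean of 3 pools. From Npas4 on the left to Fosl2 the fractions are apart, from Egr1 to Maff they overlap, and Myc on the right is higher in glia.

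**Figure D3:**
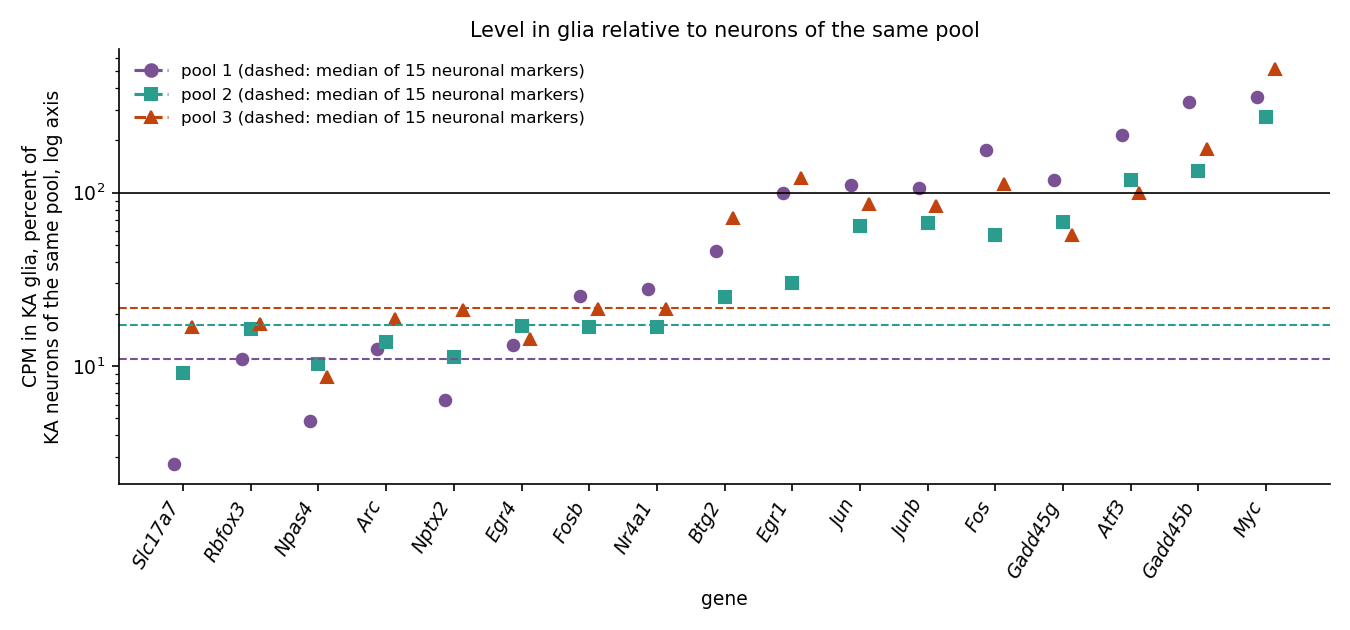
Level in KA glia as a percent of KA neurons in the same pool, on a log axis, for 2 neuronal markers and 15 activity genes. Dashed lines give the median of 15 neuronal markers in each pool. Npas4 lies below those lines, Arc, Nptx2 and Egr4 lie below them apart from pool 1 of Arc and Egr4, and Jun, Junb, Fos, Gadd45g, Atf3 and Gadd45b lie well above those lines.

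The products through which activity changes synapses were mostly neuronal. Of 24 effector genes, 18 (75.0%) were higher in neurons, 1 (4.17%) in glia and 5 did not pass (median logFC 2.05). Among protein-coding genes these shares were 21.7% and 10.5%. With 1 KA pool left out, 14 to 18 were higher in neurons and 0 to 2 in glia, with the KA libraries alone 17 and 4, and with at least 10 counts in every library or without SH pool 1, 17 and 3. Arc, which removes AMPA receptors from synapses, measured 530.0, 753 and 1042 CPM in neurons and 67.01, 104 and 194 CPM in glia (logFC 2.75 ± 0.27, FDR 5.77e-06). Ptgs2, the inducible cyclooxygenase, measured 403, 338 and 330.3 CPM in neurons and 19.7, 47.5 and 59.8 CPM in glia (logFC 3.19 ± 0.36, FDR 1.36e-05), and the neuronal pentraxins Nptx1 and Nptx2, which gather AMPA receptors, had a logFC of 3.16 ± 0.37 and 3.11 ± 0.36. The neurotrophin Bdnf measured 221, 187 and 292 CPM in neurons and 24.2, 36.6 and 68.2 CPM in glia (logFC 2.54 ± 0.32, FDR 3.19e-05). Every one of these had its lowest neuronal pool above its highest glial pool. Inhba, a subunit of activin, had a logFC of 3.06 ± 0.34, the kinase Plk2 2.77 ± 0.32 and the G protein regulator Rgs4 2.21 ± 0.22. Sv2c, a synaptic vesicle protein, was higher in neurons too (logFC 1.58 ± 0.33, FDR 0.00255), but its ranges overlapped and the call was lost without pool 1 (FDR 0.0656) or pool 2 (FDR 0.0506).

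The growth arrest genes of the Gadd45 family did not follow them. Gadd45b measured 48.7, 47.1 and 112 CPM in neurons and 163, 62.6 and 201 CPM in glia (logFC -0.99 ± 0.52, FDR 0.243) and Gadd45g 79.1, 117 and 299 CPM in neurons and 94.2, 79.2 and 172 CPM in glia (logFC 0.38 ± 0.28, FDR 0.48). Gadd45b was higher in glia than in neurons within each pool, while the ranges over pools overlapped. It passed towards glia with the KA libraries alone (logFC -1.47, FDR 0.00572), without KA pool 2 (FDR 0.0171), without SH pool 2 (FDR 0.00866) and without a count filter (FDR 0.0409). Gadd45a measured 7.69, 9.93 and 18.5 CPM in neurons and 17.8, 15.4 and 36.6 CPM in glia (logFC -0.94 ± 0.27, FDR 0.0196), a call towards glia that none of the 3 fits without a KA pool kept.

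Neuropeptides and granins, the cargo of dense core vesicles, were the list with the highest median (logFC 2.35). Of 20 genes, 15 (75.0%) were higher in neurons and 1 (5.0%) in glia, against 21.7% and 10.5% of protein-coding genes. The counts were 13 to 14 and 1 with 1 KA pool left out. Vip measured 46.6, 61.7 and 58.01 CPM in neurons and 6.43, 9.48 and 10.95 CPM in glia (logFC 2.65 ± 0.23, FDR 2.97e-06), Sst 126, 83.6 and 84.8 CPM in neurons and 8.95, 10.9 and 17.6 CPM in glia (logFC 2.98 ± 0.29, FDR 5.83e-06) and Cck 124, 79.7 and 91.7 CPM in neurons and 9.39, 8.18 and 18.5 CPM in glia (logFC 3.09 ± 0.30, FDR 5.38e-06). These are peptides of interneurons and their fractions were far apart. Trh, thyrotropin-releasing hormone, measured 49.7, 64.1 and 99.5 CPM in neurons and 7.82, 11.2 and 18.9 CPM in glia (logFC 2.52 ± 0.35, FDR 8.47e-05), Penk, proenkephalin, 193, 253 and 359 CPM in neurons and 13.8, 34.1 and 98.7 CPM in glia (logFC 2.83 ± 0.30, FDR 1.07e-05), and the granin Scg2 had a logFC of 2.84 ± 0.44. Galanin (Gal) measured 14.9, 18.3 and 12.03 CPM in neurons and 1.48, 3.86 and 4.53 CPM in glia (logFC 2.28 ± 0.48, FDR 0.00255), and its call was lost without pool 1 (FDR 0.107).

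The gene on the other side was Ucn2, urocortin 2, a peptide of the CRH family, at chr9:108986010-108987164. It measured 0.171, 0.555 and 0.608 CPM in neurons and 8.78, 7.95 and 20.2 CPM in glia (logFC -4.71 ± 0.79, FDR 4.35e-04) and so lay below 1 CPM in neurons and between 7.95 and 20.2 CPM in glia. In SH libraries it did not exceed 0.776 CPM.

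Subunits of the receptors that kainate and glutamate act on were neuronal in 13 of 15 cases. Grin1, the obligatory NMDA receptor subunit, measured 687, 523 and 688 CPM in neurons and 24.8, 60.6 and 128 CPM in glia (logFC 3.41 ± 0.44, FDR 4.45e-05) and Grin2a had a logFC of 3.29 ± 0.39. The kainate receptor subunit Grik4 measured 116, 149.7 and 198 CPM in neurons and 20.3, 34.8 and 57.2 CPM in glia (logFC 2.13 ± 0.24, FDR 1.44e-05). Grin2c was higher in glia, with 1.11, 1.39 and 4.78 CPM in neurons and 34.9, 9.56 and 11.2 CPM in glia (logFC -2.79 ± 0.73, FDR 0.012), and Grik2 did not pass (logFC 0.69 ± 0.28). The number of neuronal calls fell to 7 without KA pool 1 and to 9 without KA pool 2.

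Glial clearance stood opposite. Of 12 genes for the uptake of glutamate, potassium and water, 11 were higher in glia (median logFC -2.94), and 10 to 11 were when 1 KA pool was left out. The glutamate transporter Slc1a3 measured 15.7, 21.7 and 79 CPM in neurons and 532, 277 and 348 CPM in glia (logFC -3.61 ± 0.53, FDR 1.30e-04) and the potassium channel Kcnj10 1.54, 2.64 and 3.65 CPM in neurons and 64.1, 25.2 and 58.97 CPM in glia (logFC -4.11 ± 0.38, FDR 4.03e-06). Slc1a2 was the one that did not pass, with 130.3, 172 and 229.7 CPM in neurons and 397, 154 and 219 CPM in glia, and glia exceeded neurons in pool 1 only. In pool 3 neurons, Slc1a3 was at 22.7% of glia, and at 2.96% in pool 1.

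Of 16 heat shock genes, 4 (25.0%) were higher in neurons, 2 (12.5%) in glia, and 10 did not pass (median logFC 0.23), shares near the 21.7% and 10.5% of protein-coding genes. With 1 KA pool left out, 2 to 4 were higher in neurons and 1 to 2 in glia, and without SH pool 1, 4 and 5. The inducible chaperone Hspa1a, at chr17:34969190-34972156, measured 44.5, 82.4 and 838 CPM in neurons and 12.8, 4.47 and 35.8 CPM in glia (logFC 3.58 ± 0.48, FDR 5.71e-05). Its neighbour Hspa1b measured 167, 165 and 1621 CPM in neurons and 53.6, 13.8 and 68.1 CPM in glia (logFC 3.30 ± 0.49, FDR 1.44e-04). Both were higher in neurons in each pool, but neurons of pool 3 stood far above the other pools. Without pool 3 the logFC was 3.01 for Hspa1a and 2.62 for Hspa1b, and both still passed. The genes are near-identical copies, so reads may have been split between them or left uncounted.

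Hsph1, a partner of Hspa1a, measured 227, 291 and 535 CPM in neurons and 105, 84.6 and 191 CPM in glia (logFC 1.46 ± 0.22, FDR 1.65e-04) and lost the call without pool 2 (FDR 0.0823). Dnaja1 had a logFC of 1.04 ± 0.20 and lost it without pool 1 (FDR 0.376) or pool 2 (FDR 0.263). Cryab, the small heat shock protein alpha B-crystallin, was the glial counterpart with 3.59, 3.37 and 8.26 CPM in neurons and 151, 49.3 and 69.9 CPM in glia (logFC -4.04 ± 0.38, FDR 4.72e-06). Bag3, a co-chaperone, was higher in glia (logFC -1.01 ± 0.25, FDR 0.00776), but its ranges overlapped and the call was lost without pool 1 (FDR 0.232) or pool 2 (FDR 0.125). The constitutive chaperones Hsp90aa1, Hsp90ab1 and Hspd1 had logFC between -0.08 and 0.14 with SE of 0.19 to 0.25, and the ER chaperone Hspa5 measured 443, 327 and 468 CPM in neurons and 482, 353 and 638 CPM in glia. Hspb1 measured 5.38, 5.41 and 26.1 CPM in neurons and 13.8, 8.34 and 24.5 CPM in glia and did not pass.

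Genes of p53, stress kinases and cell death lay towards glia after both KA and SH, with a median logFC of -0.35 and -0.51. Of 19 genes, 9 (47.4%) were higher in glia and 1 (5.26%) in neurons after KA, against 10.5% and 21.7% of protein-coding genes. Without 1 KA pool, 6 to 8 were higher in glia. No gene of the list passed in the test of the difference between KA and SH. Phlda3, a p53 target that restrains Akt, measured 2.99, 7.46 and 12.96 CPM in neurons and 66.6, 59.5 and 176 CPM in glia (logFC -3.69 ± 0.27, FDR 8.92e-07). The cell cycle inhibitor Cdkn1a measured 19.7, 29.5 and 65.9 CPM in neurons and 169, 47.3 and 229.6 CPM in glia (logFC -1.84 ± 0.40, FDR 0.00317), and its ranges overlapped, with glia of pool 2 below neurons of pool 3. Tnfrsf12a, the receptor of TWEAK, had a logFC of -2.18 ± 0.29 and the pseudokinase Trib1 of -1.71 ± 0.21. The p53 regulator Mdm2 measured 97.6, 134 and 175 CPM in neurons and 133, 115 and 307 CPM in glia and the death gene Bbc3 9.14, 6.77 and 10.9 CPM in neurons and 11.9, 5.85 and 12.03 CPM in glia, and neither passed. Chac1, a glutathione-degrading enzyme, was the 1 gene higher in neurons (logFC 1.85 ± 0.62, FDR 0.0461), though not without pool 3 (FDR 0.26), and with the size factors of DESeq2 or upper quartile scaling no gene of the list was.

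Genes known from injured axons were mixed, with 7 of 15 higher in neurons and 3 in glia (median logFC 0.99). With 1 KA pool left out, 4 to 7 were higher in neurons and 1 to 2 in glia, and with the KA libraries alone 6 and 5. Sox11, a factor of axon regrowth, measured 128, 133 and 168 CPM in neurons and 26.9, 26.3 and 60.5 CPM in glia (logFC 2.02 ± 0.29, FDR 9.87e-05), and the microtubule regulator Stmn2 had a logFC of 2.14 ± 0.23. Socs3, which holds back STAT3 and axon regrowth, measured 34.9, 87.1 and 167 CPM in neurons and 284, 238 and 801 CPM in glia (logFC -2.24 ± 0.30, FDR 6.55e-05). Sox11 and Socs3, both known from injured neurons, were thus found on opposite sides.

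Of 15 oxidative stress and metal response genes, 4 (26.7%) were higher in neurons and 5 (33.3%) in glia. The neuronal share was near the 21.7% of protein-coding genes, and the glial share stood against 10.5%. Nfe2l2, the master factor of the antioxidant response, measured 3.25, 3.05 and 4.05 CPM in neurons and 31.9, 21.9 and 31.5 CPM in glia (logFC -3.02 ± 0.27, FDR 3.32e-06). Its targets were on both sides: Hmox1, heme oxygenase, was higher in glia (logFC -1.73 ± 0.31) and Srxn1, sulfiredoxin, in neurons (logFC 1.21 ± 0.19), the latter not without pool 1 (FDR 0.282) or pool 2 (FDR 0.0698). The metallothionein Mt3 measured 72.6, 65.7 and 97.5 CPM in neurons and 25.1, 11.7 and 35.9 CPM in glia (logFC 1.82 ± 0.23, FDR 4.33e-05). Without 1 KA pool, 1 to 4 of the list were higher in neurons and 3 to 5 in glia, with the KA libraries alone 2 and 8, and with the size factors of DESeq2 2 and 5.

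Reactive astrocyte genes were glial in 20 of 29 cases, neuronal in 1, and their median logFC was -2.09. Gfap, the intermediate filament of astrocytes, measured 25.2, 66.3 and 248 CPM in neurons and 568, 359.6 and 720.0 CPM in glia (logFC -2.77 ± 0.44, FDR 2.75e-04). Serpina3n, a protease inhibitor of reactive astrocytes, measured 129, 228 and 213 CPM in neurons and 744, 698 and 1530.2 CPM in glia (logFC -2.33 ± 0.31, FDR 5.87e-05), and Cxcl10, a chemokine, 2.22, 2.85 and 4.78 CPM in neurons and 36.9, 29.98 and 31.8 CPM in glia (logFC -3.36 ± 0.37, FDR 1.25e-05). The fractions did not overlap for these 3. In neurons of pool 3, Gfap was at 34.5% of glia against 4.43% in pool 1, and the share of the astrocytic markers was 38.4% in pool 3 and 10.7% in pool 1. What this share contributes to the neuronal values of astrocyte genes was not tested. Tm4sf1, a membrane protein of spreading cells, had a logFC of -2.87 ± 0.44 and the hyaluronan receptor Cd44 of -2.16 ± 0.32. Amigo2, a cell adhesion gene, was the 1 gene higher in neurons, with 33.5, 35.02 and 38.4 CPM in neurons and 5.65, 11.5 and 6.14 CPM in glia (logFC 2.26 ± 0.38, FDR 3.91e-04). Between 16 and 20 of the 29 were higher in glia without 1 KA pool, and 13 without the pool as a block.

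No microglial gene of the lists was higher in neurons. All 12 homeostatic genes (median logFC -3.67) and 17 of 23 reactive and phagocytic genes (median logFC -3.33) were higher in glia, and the counts were the same with any 1 KA pool left out. Trem2, the lipid receptor of reactive microglia, measured 1.62, 3.54 and 5.47 CPM in neurons and 44.4, 82.4 and 174 CPM in glia (logFC -4.77 ± 0.28, FDR 2.41e-07). Spp1, osteopontin, measured 6.66, 19.2 and 35.7 CPM in neurons and 159.6, 287 and 786 CPM in glia (logFC -4.30 ± 0.45, FDR 9.07e-06), with glia of pool 3 at 786 CPM. The protease Ctss measured 5.12, 6.18 and 7.94 CPM in neurons and 128, 105 and 183 CPM in glia (logFC -4.41 ± 0.25, FDR 2.38e-07). Lilrb4a had a logFC of -4.87 ± 0.45, and it shares 35.3% of its exon bases with another gene on its strand. The 6 that did not pass (Cst7, Itgax, Gpnmb, Lgals3, Clec7a and C3) had logFC between -2.09 and -0.50, all towards glia.

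Cytokines and chemokines followed, with 20 of 25 higher in glia and 3 in neurons (median logFC -2.81). With 1 KA pool left out, 17 to 20 were higher in glia and 2 to 3 in neurons. Tnf, at chr17:35199381-35202007, measured 0.171, 0.0694 and 1.46 CPM in neurons and 5.302, 10.5 and 28.2 CPM in glia (logFC -5.19 ± 0.58, FDR 1.38e-05), and its neuronal values rest on 2, 2 and 36 counts. Ccl3 had a logFC of -5.09 ± 0.44, Ccl12 measured 1.28, 1.56 and 2.92 CPM in neurons and 29.2, 33.7 and 77.1 CPM in glia (logFC -4.56 ± 0.34, FDR 9.47e-07), and the alarmin Il33 6.66, 16.1 and 29.5 CPM in neurons and 202, 269 and 578 CPM in glia (logFC -4.40 ± 0.27, FDR 2.68e-07). None of these overlapped between the fractions. Lif, the leukaemia inhibitory factor, measured 1.02, 6.91 and 33.5 CPM in neurons and 63.3, 46.4 and 107 CPM in glia (logFC -3.12 ± 0.62, FDR 0.00179), with pool 3 highest among the neurons, and it did not pass without the pool as a block (FDR 0.123).

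The 3 neuronal ligands were Cx3cl1, Il34 and Tgfb2. Cx3cl1, fractalkine, measured 875, 943 and 953 CPM in neurons and 68.1, 141 and 251 CPM in glia (logFC 2.78 ± 0.37, FDR 6.33e-05), while its receptor Cx3cr1, given above, was on the glial side. Il34 measured 28.02, 30.1 and 22.8 CPM in neurons and 6.43, 6.19 and 9.31 CPM in glia (logFC 1.89 ± 0.30, FDR 2.93e-04). Its receptor Csf1r measured 10.8, 24.5 and 31.3 CPM in neurons and 179, 259 and 420.4 CPM in glia (logFC -3.72 ± 0.24, FDR 4.32e-07). Csf1, the other ligand of that receptor, was glial instead, with 33.99, 71.5 and 67.9 CPM in neurons and 201, 172 and 526 CPM in glia (logFC -2.27 ± 0.32, FDR 9.06e-05). The 2 ligands of Csf1r thus lay in opposite fractions. Tgfb2 (logFC 1.01 ± 0.22) was called towards neurons, but not without pool 1 (FDR 0.242) or pool 2 (FDR 0.311), and its receptors Tgfbr1 and Tgfbr2 were higher in glia (logFC -1.95 ± 0.21 and -1.68 ± 0.27).

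**Figure D4:**
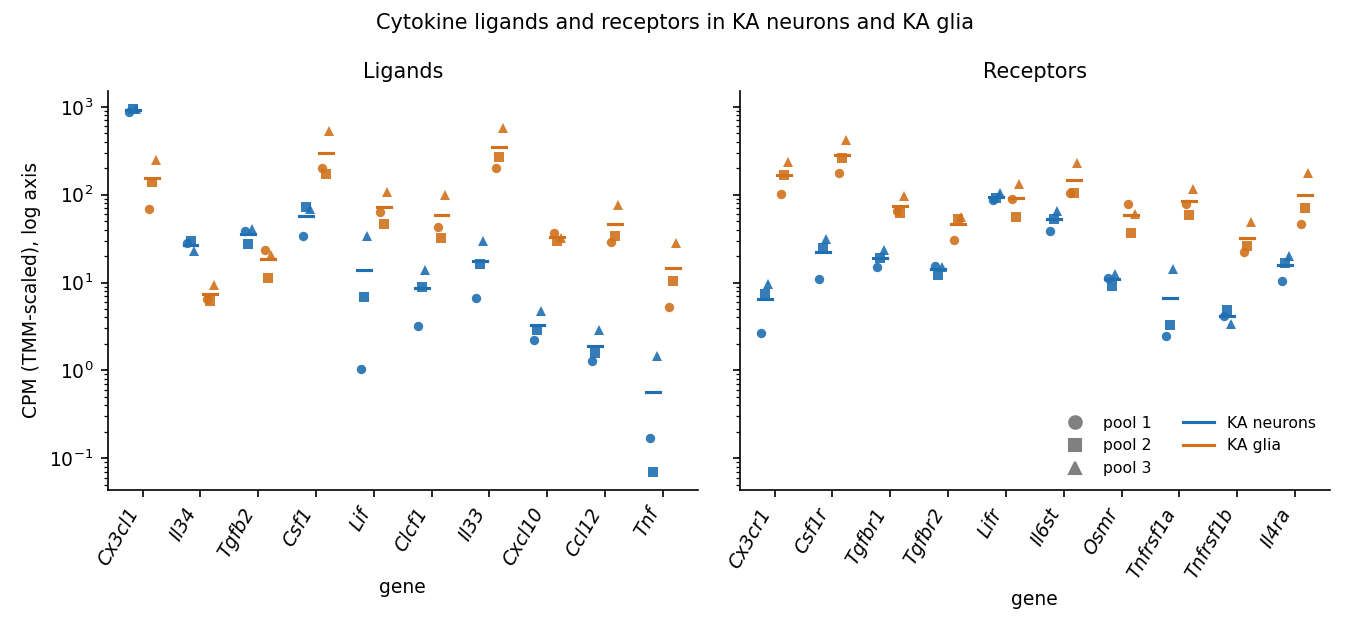
CPM of 10 ligands and 10 receptors in KA neurons (blue) and KA glia (orange) on a log axis, 1 symbol per pool and a bar at the mean of 3 pools. Cx3cl1 and Il34 are higher in neurons and their receptors Cx3cr1 and Csf1r in glia, while Lifr did not pass the test.

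Among 20 cytokine receptors and STAT3 genes, 11 (55.0%) were higher in glia and 3 (15.0%) in neurons (median logFC -1.05). Among protein-coding genes these shares were 10.5% and 21.7%. The 3 neuronal calls were Il11ra1, Jak1 and Socs2, with 0 to 2 neuronal calls without 1 KA pool, 0 with the KA libraries alone, 0 with the size factors of DESeq2 and 1 with upper quartile scaling. The oncostatin receptor Osmr measured 11.4, 9.09 and 12.6 CPM in neurons and 79, 37.1 and 59.5 CPM in glia (logFC -2.35 ± 0.27, FDR 1.95e-05) and the shared subunit Il6st had a logFC of -1.41 ± 0.21. The Lif receptor Lifr measured 86.3, 90.7 and 105 CPM in neurons and 89.5, 55.4 and 131 CPM in glia and did not pass (logFC 0.11 ± 0.22). Tnfrsf1a, the receptor of Tnf, measured 2.48, 3.297 and 14.3 CPM in neurons and 77.7, 59.1 and 115 CPM in glia (logFC -3.97 ± 0.38, FDR 5.73e-06). Of the nuclear factors, Bcl3, a partner of NF-kB, had a logFC of -4.54 ± 0.31 and Cebpd measured 40.7, 42.2 and 57.1 CPM in neurons and 164, 133 and 288 CPM in glia (logFC -2.00 ± 0.26, FDR 4.44e-05).

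Interferon response genes were higher in glia in 20 of 23 cases and in neurons in 0 (median logFC -2.54), and in 19 to 20 cases without 1 KA pool. Irgm1, a GTPase of cell defence, measured 10.3, 9.72 and 10.3 CPM in neurons and 50.5, 54.5 and 47.3 CPM in glia (logFC -2.33 ± 0.23, FDR 6.41e-06). Its 3 pools differed little within each fraction. Nlrc5, which drives MHC class I genes, measured 6.24, 6.56 and 7.05 CPM in neurons and 37.8, 46.8 and 96.7 CPM in glia (logFC -3.08 ± 0.27, FDR 3.10e-06), and the antiviral GTPase Mx1 had a logFC of -3.74 ± 0.58. Ifit3 and Ifit3b, and Ifi204 and Ifi207, are close relatives whose reads may be shared. Irf1, Stat2 and Isg15 did not pass.

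Of 27 matrix genes, 14 (51.9%) were higher in glia and 6 (22.2%) in neurons (median logFC -1.32). The neuronal share was near the 21.7% of protein-coding genes, and the glial share stood against 10.5%. Adamts4, a protease that cuts aggrecan, measured 3.502, 9.197 and 23.8 CPM in neurons and 200.2, 164 and 406 CPM in glia (logFC -4.61 ± 0.40, FDR 2.97e-06), and the hyaluronan synthase Has2 had a logFC of -4.20 ± 0.40. Acan, aggrecan itself, measured 68.1, 89.6 and 65.5 CPM in neurons and 10.4, 14.8 and 23.1 CPM in glia (logFC 2.26 ± 0.33, FDR 1.24e-04). The protease and its substrate were thus in opposite fractions. Hapln4, a link protein of the net around neurons, had a logFC of 2.95 ± 0.36, and the basement membrane collagen Col4a1 measured 289, 313 and 679.8 CPM in neurons and 29.7, 47.03 and 112 CPM in glia (logFC 2.87 ± 0.27, FDR 4.97e-06). Without 1 KA pool, 3 to 4 were towards neurons and 11 to 13 towards glia, and with the KA libraries alone 3 and 16.

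Of 17 growth factors, 5 (29.4%) were higher in glia and 1 (5.88%) in neurons, against 10.5% and 21.7% of protein-coding genes. The counts were 4 to 7 and 0 to 1 when 1 KA pool was left out, and 8 and 0 with the KA libraries alone. Tgfa, a ligand of the EGF receptor, measured 18.96, 17.5 and 20.4 CPM in neurons and 128, 125 and 272 CPM in glia (logFC -3.11 ± 0.24, FDR 1.37e-06). The vessel growth factor Vegfa measured 182, 153 and 433 CPM in neurons and 211, 70.1 and 422 CPM in glia and did not pass. In the sphingosine-1-phosphate pathway, 6 of 10 genes were higher in glia and 0 in neurons, with 5 to 6 in glia when 1 KA pool was left out. The receptors S1pr5, S1pr1 and S1pr3 were among them, S1pr3 with 4.95, 10.3 and 30.2 CPM in neurons and 70.8, 81.1 and 101 CPM in glia (logFC -2.81 ± 0.35, FDR 3.02e-05), S1pr5 with a logFC of -3.89 ± 0.27 and S1pr1 of -3.60 ± 0.64. The kinase Sphk1 measured 18.4, 37 and 68.2 CPM in neurons and 76.7, 45.01 and 127 CPM in glia (logFC -1.06 ± 0.34, FDR 0.0406), with overlapping ranges, and was not called without pool 1 (FDR 0.451) or pool 3 (FDR 0.14).

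Other genes that the study names were found on either side. The inositol kinase Itpka measured 101, 67.2 and 98.4 CPM in neurons and 7.39, 9.101 and 17.7 CPM in glia (logFC 3.02 ± 0.25, FDR 2.38e-06) and the dopamine receptor Drd1 49.3, 73.6 and 79 CPM in neurons and 14.7, 21.3 and 19.8 CPM in glia (logFC 1.85 ± 0.27, FDR 1.15e-04). Cacng5, an auxiliary subunit of AMPA receptors, was higher in glia, with 17.2, 26.3 and 16 CPM in neurons and 47.1, 81.9 and 126 CPM in glia (logFC -2.02 ± 0.30, FDR 1.64e-04). The phospholipase Plce1 was too (logFC -1.12 ± 0.21), not without pool 1 (FDR 0.141). The histone deacetylase Hdac11 was called towards neurons (logFC 1.00 ± 0.24), not without pool 1 (FDR 0.49) or pool 2 (FDR 0.509).

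Of 7 markers of Cajal-Retzius cells and immature neurons, 4 were higher in glia, Reln, Trp73, Lhx1 and Lhx5. Glia here is the NeuN- fraction, and whether neurons without NeuN gave these transcripts was not tested. Trp73 measured 5.21, 5.07 and 3.44 CPM in neurons and 19.03, 21.5 and 23.7 CPM in glia (logFC -2.25 ± 0.32, FDR 1.02e-04). Dcx, a marker of young neurons, was higher in neurons with 49.5, 66.8 and 60.9 CPM in neurons and 13.6, 13.8 and 18.6 CPM in glia (logFC 1.95 ± 0.22, FDR 1.36e-05). Markers of blood leukocytes were low, apart from Ptprc (17.9, 11.2 and 9.76 CPM in neurons and 58.1, 87.1 and 111 CPM in glia), which microglia express as well. The monocyte receptor Ccr2 did not exceed 10.4 CPM in a KA library, and its call towards glia (FDR 0.0337) was lost with any 1 KA pool left out.

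The median logFC of each gene list had the same sign after SH as after KA, apart from heat shock genes. After SH it was 2.18 for neuropeptides, -3.74 for glial clearance, -1.29 for cytokine receptors and -1.88 for reactive microglia genes. After KA these medians were 2.35, -2.94, -1.05 and -3.33. For activity effectors the median was 1.22 after SH and 2.05 after KA. It was 0.40 and 0.36 for immediate early transcription factors, and -1.02 and -2.54 for interferon response genes. Medians were not tested. To ask whether a gene lay between the fractions in another way after kainic acid than after saline, the difference of KA was set against that of SH. The difference was higher in KA for 22 genes (0.0585% of those tested) and lower for 11 (0.0293%). No gene of the lists of activity effectors, immediate early transcription factors or cytokines was among them. Without the pool as a block no gene passed in edgeR, with 286 genes higher and 216 lower at an unadjusted p under 0.05, and DESeq2 with the block called 180 and 81. With 1 pool left out, 6 to 23 were higher and 2 to 20 lower, fewest without KA pool 3. The 5 smallest p values towards higher were those of Cd1d1, Pcdh11x, Gipr, Col27a1 and Ptgs1, and those towards lower of Thbd, Adam8, Gm3448, Col16a1 and Cebpd.

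Cd1d1, which presents lipids to T cells, lay more towards neurons after KA. It measured 24.4, 64.3 and 92 CPM in neurons and 5.21, 9.64 and 21.3 CPM in glia after KA and 6.84, 4.26 and 9.06 CPM in neurons and 11.3, 5.598 and 12.8 CPM in glia after SH (difference of logFC 2.90 ± 0.32, FDR 0.007). Neurons of every KA pool were above every SH library. Acan measured 2.78, 7.71 and 6.45 CPM in neurons and 12.1, 12.5 and 7.53 CPM in glia after SH against the KA values given above (difference of logFC 3.22 ± 0.47, FDR 0.0178), and its SH difference did not pass the test (logFC -0.96 ± 0.34, FDR 0.0561). The fibrillar collagen gene Col27a1 measured 88.3, 186 and 302 CPM in neurons and 55.1, 72.5 and 109.8 CPM in glia after KA and 16.3, 23.9 and 15.3 CPM in neurons and 68.7, 59.2 and 136 CPM in glia after SH (difference of logFC 3.35 ± 0.42, FDR 0.0084). Its KA difference on its own (logFC 1.17 ± 0.29) was not kept by any of the 3 fits without a KA pool (lowest FDR 0.066), while in SH it was glial (logFC -2.17 ± 0.31).

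Pcdh11x, a protocadherin on the X chromosome, and Gipr, the receptor of an incretin, also lay more towards neurons after KA. Gipr measured 51.1, 72.7 and 215 CPM in neurons and 18.4, 22.5 and 80.2 CPM in glia after KA and 5.93, 7.29 and 10.8 CPM in neurons and 41.5, 13.97 and 81.5 CPM in glia after SH (difference of logFC 3.77 ± 0.44, FDR 0.007). Pcdh11x had a logFC of 0.63 ± 0.21 in KA, lost without pool 1 (FDR 0.78) or pool 2 (FDR 0.927), and of -2.04 ± 0.22 in SH. Ptgs1, the constitutive cyclooxygenase, was glial in both, with logFC of -1.16 ± 0.20 in KA and -3.39 ± 0.22 in SH. Hspa1a measured 4.78, 5.69 and 7.67 CPM in neurons and 12.7, 5.01 and 6.45 CPM in glia after SH (difference of logFC 3.88 ± 0.64, FDR 0.0429), where its difference did not pass the test.

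Towards glia, the metalloprotease Adam8 measured 17.3, 22.7 and 30.9 CPM in neurons and 40.7, 85.4 and 269.9 CPM in glia after KA and 26.3, 23.01 and 83.1 CPM in neurons and 12.2, 11.6 and 16.6 CPM in glia after SH (difference of logFC -3.58 ± 0.47, FDR 0.0092). Thbd, thrombomodulin, measured 17.2, 8.16 and 19.8 CPM in neurons and 44.8, 32.1 and 36.4 CPM in glia after KA and 12.8, 21.2 and 19.9 CPM in neurons and 4.42, 7.93 and 3.59 CPM in glia after SH (difference of logFC -3.22 ± 0.40, FDR 0.0084). Both were higher in neurons after SH and higher in glia after KA, though the KA call of Thbd was lost without pool 2 (FDR 0.0514). Cebpd, a factor of the acute phase, measured 80.2, 40.4 and 70.05 CPM in neurons and 43.3, 55.5 and 48.3 CPM in glia after SH, where its difference did not pass, against the KA values given above (difference of logFC -2.33 ± 0.36, FDR 0.0276). Col16a1, a collagen found with fibrils, measured 41.3, 69.8 and 199 CPM in neurons and 414, 557 and 1539 CPM in glia after KA and 41.2, 46.2 and 106 CPM in neurons and 77.7, 85.9 and 246 CPM in glia after SH (difference of logFC -2.08 ± 0.31, FDR 0.0224), and Ch25h, an enzyme that makes 25-hydroxycholesterol, measured 1.62, 2.78 and 3.77 CPM in neurons and 13.6, 43.4 and 83.8 CPM in glia after KA and at most 2.24 CPM in any SH library.

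**Figure D5:**
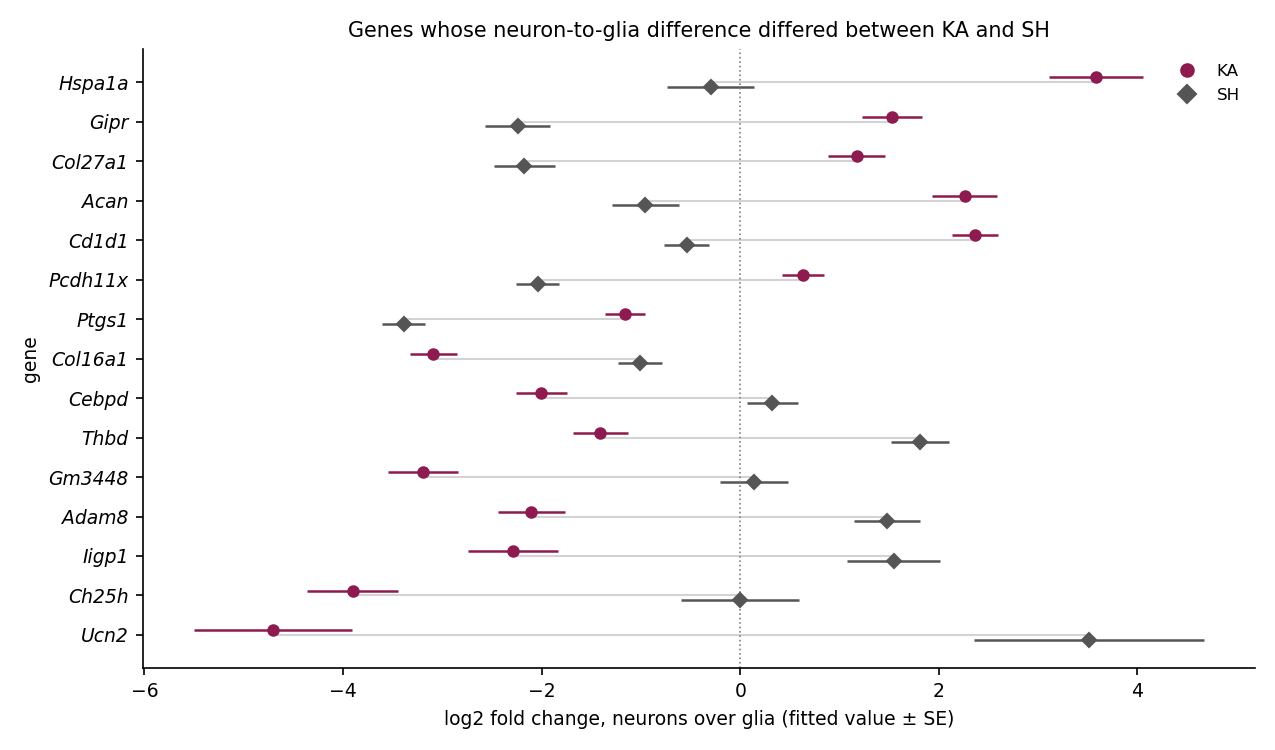
Fitted log2 fold change of neurons over glia ± SE after KA (circles) and SH (diamonds) for the 15 named genes whose difference passed an FDR of 0.05 between KA and SH. Genes at the top lay more towards neurons after KA, and genes at the bottom more towards glia.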

How the data were processed

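The mRNAseq libraries were made from sorted nuclei with SMART-Seq v4. The authors trimmed reads with Trim Galore 0.4.3, aligned them to mm10 with Rsubread and deposited whole-number counts per gene from featureCounts on GENCODE M16, without strand. Groups followed the sample titles, and 12 bisulfite samples were not used here.

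From the deposited counts, neurons and glia were compared in all 12 libraries with edgeR 4.0.16 (R 4.3.3), with TMM scaling, genes kept by filterByExpr (minimum count 10), 6 pools as blocks, a neuron-minus-glia term per treatment, quasi-likelihood tests with Benjamini-Hochberg adjustment, and 4 residual degrees of freedom. Both fractions of a pool are from the same mice, and their deviations from the group means correlated at 0.590, 0.293 and 0.649 in KA and 0.435, 0.507 and 0.638 in SH. Fractions of different pools gave -0.589 to 0.314 in KA and -0.4 to -0.0169 in SH. The value of 0.314 was that of KA glia of pool 2 with neurons of pool 1, above the 0.293 with neurons of its own pool. Pools, not mice, are the replicates. Symbols of 53274 of 53379 gene IDs came from GENCODE M21. Totals were 7769400 to 40364768 counts per library, and how libraries were spread over sequencers is not given in the sources used here. In data simulated for KA neurons against KA glia over 35809 genes with 200 changed, the fit found 15% of 2-fold and 69% of 4-fold changes. The simulation had no pool effects and far fewer changed genes than were called here. Its rates therefore do not give the power of the comparison itself.

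The gene lists and members were chosen with earlier results of these data known. The rule for named genes held the markers of the sort, the 10 largest logFC each way among called protein-coding genes with fractions that did not overlap and at least 10 CPM, up to 4 genes of smallest p each way and 2 nearest 0 in each list, the 5 smallest p each way of the difference between KA and SH with at least 5 CPM, and genes the study discusses. Of 145 genes given values, 38 lie outside this rule and were chosen after their values were seen, among them Fos, Jun, Egr1, Gfap, Lif and Ptgs2. Not every gene that the rule admits is given values, and 1 of the 10 largest towards glia is not reported here. The alternatives were other scalings, filters, thresholds and tests (DESeq2 1.42.0, limma-voom 3.58.1), left-out pools, no block, KA libraries alone, and a fit without both the low-input libraries and the block.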

Additional observations from a re-analysis of the deposited data

Results flagged for a closer look

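For 15 genes named here the neuron-to-glia difference was not the same size after KA and SH in the test of the difference itself (edgeR quasi-likelihood, FDR under 0.05 over all genes). They are those of the 22 higher and 11 lower genes past this test that are in a gene list or among the smallest p values. Values are the KA logFC minus the SH logFC. The difference was 2.90 for Cd1d1, 2.67 for Pcdh11x, 3.77 for Gipr, 3.35 for Col27a1, 2.23 for Ptgs1, 3.88 for Hspa1a and 3.22 for Acan, all towards neurons after KA. Towards glia it was -3.22 for Thbd, -3.58 for Adam8, -3.34 for Gm3448, -2.08 for Col16a1, -2.33 for Cebpd, -8.22 for Ucn2, -3.90 for Ch25h and -3.83 for the interferon-induced GTPase Iigp1. The value for Ucn2 is no bound, since SH glia held 0, 0.0974 and 0 CPM and the fitted value depends on the prior count. Of the 6 fits that each left out a pool, Cd1d1, Pcdh11x and Thbd passed in 6, Adam8, Gm3448 and Acan in 5, Gipr, Col27a1, Ptgs1 and Hspa1a in 4, Ucn2, Ch25h and Iigp1 in 3, Cebpd in 2 and Col16a1 in 1. None of the 15 passed without the pool as a block.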

How the results depend on the processing

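The gene counts moved with the processing. The 5289 genes higher in KA neurons became 2211 with no replicate block, 2986 with KA libraries alone, 3485 without a count filter, 3149 among protein-coding genes fitted alone, 815 without both the block and the low-input libraries, and 1844 to 5573 with a pool left out. The 2502 genes higher in KA glia became 4087 at an FDR of 0.25, 1497 with no block, 4403 with KA libraries alone, 3806 with at least 10 counts in every library, 1312 without both the block and the low-input libraries, and 1733 to 4459 with a pool left out. The 22 genes with a higher difference in KA than SH became 118 at an FDR of 0.25, 9 at 0.01, 0 with no block, 180 with DESeq2, 67 with limma-voom, 62 among protein-coding genes, 13 on autosomes, 0 without both the block and the low-input libraries, and 6 to 23 with a pool left out. The 11 with a lower one became 59, 2, 0, 81, 33, 36, 6 and 0 in the same order, 19 without a count filter, 17 with at least 10 counts, 17 with the newer edgeR test, and 2 to 20 with a pool left out. The cause of these moves was not tested. The sign turned in 12 of the 181 genes named, none of them called. With KA libraries alone the logFC was -0.24 for Jun, -0.00154 for Egr1, -0.10 for Gadd45g, -0.17 for Slc4a4, -0.23 for Junb, -0.0275 for Jund, -0.38 for Klf6, -0.34 for Hsp90ab1, -0.37 for Lifr and -0.16 for Vegfa. With at least 10 counts in every library it was -0.0798 for Jun, -0.0108 for Slc4a4, -0.0699 for Junb, -0.22 for Klf6, -0.18 for Hsp90ab1 and -0.20 for Lifr. Klf6, Hsp90ab1 and Lifr were at -0.0592, -0.0187 and -0.0464 with DESeq2 and at -0.0592, -0.0187 and -0.0464 with its size factors, Klf6 and Lifr at -0.0170 and -0.00547 with upper quartile scaling, and Fosl1 at 0.00108 with limma-voom. With a pool left out the range was -0.56 to 0.13 for Fos, -0.21 to 0.26 for Jun, -0.21 to 0.88 for Egr1, -0.0710 to 0.50 for Gadd45g, -0.14 to 0.39 for Slc4a4, -0.20 to 0.26 for Junb, -0.35 to 0.11 for Klf6, -0.31 to 0.29 for Hsp90ab1, -0.34 to 0.34 for Lifr and -0.16 to 0.47 for Vegfa. None of the 148 called genes turned sign. Without the pairing by pool, 25 of them lost the call.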
